A study of Mus musculus with 6 samples.

Results

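β-Catenin, encoded by Ctnnb1, is both a structural protein of adherens junctions and the transcriptional effector of canonical Wnt signalling. Without a Wnt signal, a destruction complex built on the scaffolds Axin and Apc brings β-catenin to casein kinase 1α and glycogen synthase kinase 3, which phosphorylate it, and β-TrCP then marks it for degradation by the proteasome. In the embryonic cortex, stabilised β-catenin is known for keeping radial glia, the apical progenitors, in division. The 10 genes described here are Ctnnb1, the scaffolds Apc, Apc2, Axin1, Axin2 and Amer1, the kinases Gsk3a, Gsk3b and Csnk1a1, and the ubiquitin ligase subunit Btrc. They were chosen by name for their role, out of 54146 genes counted, and all 10 passed the filter on low counts that left 16897 genes for testing.

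RNA was sequenced from mouse cortical cells that were electroporated with plasmids in utero at E14.5 (embryonic day) and sorted for green fluorescent protein (GFP) 24 hours later, at E15.5. All 6 libraries came from wild-type embryos given a GFP plasmid under the CAG promoter, together with a hairpin plasmid under the U6 promoter. In 3 libraries (Mir) the hairpin was a precursor of the microRNA miR3607, and in 3 libraries (Scr) it was the scrambled control supplied with the vector. Each library pooled 2 embryos, so p-values measure the spread between pools, and the labels conflict on the strain, naming ICR for the breeding colony but C57BL/6 for the samples. Counts in genes ran from 12724511 to 16684038 per library. Levels are CPM, which put all libraries on a common size, and bulk levels cannot tell fewer cells of a type from less RNA per cell.

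Markers of the labelled cell type were present in every library: 8 radial glia markers summed to 1222 to 1821 CPM in Scr and 1556 to 2311 CPM in Mir, and none was at 0. The 6 intermediate progenitor markers summed to 1580 to 2520 CPM in Scr and 2413 to 3512 CPM in Mir. Both sums overlapped between the groups, but the Mir mean was higher in all 8 radial glia markers (median log2 fold change 0.21). It was also higher in all 6 intermediate progenitor markers (median 0.56). Of the latter, 2 (Btg2 and Insm1) had all Mir libraries above all Scr libraries, as did 9.72% of all genes. Neurons were also represented, with 8 cortical neuron markers summing to 5065 to 6054 CPM in Scr and 4397 to 4847 CPM in Mir. These sums did not overlap, but 0 of the 8 markers were separate between the groups on their own. The Mir mean was lower in 6 of them and higher in 2. Scr replicate 2 was the lowest library for both progenitor sums and the highest for the neuronal sum. It was also highest for inhibitory neurons (997 CPM against 111 to 352 CPM in the other 5 libraries) and endothelial cells (222 CPM against 1.78 to 89.5 CPM). Mir replicate 2 was highest for meningeal fibroblasts (201 CPM against 0.954 to 19.8 CPM in the other 5 libraries) and lowest for red blood cells (1.6 CPM against 53.2 to 800.4 CPM). By group, the Mir mean was lower in all 8 tested inhibitory neuron markers (median log2 fold change -1.54) and all 8 endothelial markers (-2.69). The same held for all 7 microglia markers (-1.46) and all 4 tested red blood cell markers (-1.24). In the 3 tested fibroblast markers it was higher (2.27). Among these genes, only P2ry12 of the microglia list was separate between the groups. The part of this cell mixture in the results was not tested. Beside a member or list median that moved by over 1.5 times or changed sign without Scr replicate 2, that value is given.

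The hairpin gives the sequence by which the microRNA could recognise a member of the complex. The strand that follows the loop in the hairpin oligonucleotide is shown 5′ to 3′ with its seed, bases 2 to 8, in capitals, and the site below it has in capitals a match to bases 2 to 7 followed by an A.
miR3607 hairpin strand: gCATGTGAtgaagcaaatcag
Btrc 3′ UTR site: agtgtgcatgCACATGAgccagattga
The Btrc site lies at chr19:45438010-45438016 on the plus strand (GRCm38, sequence from GENCODE M21), at bases 419 to 425 of the 2556-base 3′ UTR of an isoform other than the one with the longest coding part.

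A match to bases 2 to 8 reads TCACATG, and a match to bases 2 to 7 followed by A reads CACATGA. Both were searched on the transcript strand, and a TCACATGA was counted once. Taking for each gene the isoform with the longest coding part, Apc alone of the 10 held a match in its 3′ UTR, a single TCACATG at bases 563 to 569 of 3971. Of 12723 tested genes with such a UTR, 17.4% held a match, and of those with UTRs of 3000 to 5000 bases, 40% did. When the longest UTR of any protein-coding isoform was searched instead, where 19.6% of genes held a match, Apc kept its site and Btrc had the CACATGA shown. A match describes letters only, and no binding was measured.

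No member passed the test of Mir against Scr. By edgeR's quasi-likelihood test with Benjamini-Hochberg adjustment over all genes, 0 of the 10 had an adjusted p under 0.05, where 1 of 16897 genes (0.00592%) did. At an unadjusted p under 0.05, edgeR gave 4 members, with 3 higher in Mir (6.57% of all genes) and 1 lower (7.93% of all genes). DESeq2, a count model that called 4.37% of the 13285 genes to which it gave an adjusted p, called Ctnnb1 and Axin1 higher and Apc lower. Of the members, limma-voom called 0. Of the 10, 5 had no overlap between Mir and Scr libraries, against 20% of all genes. Ctnnb1, Axin1 and Gsk3a lay above (9.72% of all genes) and Apc and Amer1 below (10.3% of all genes). The median log2 fold change of the 10 was -0.07, and that of all genes tested was -0.01.

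**Figure D1:**
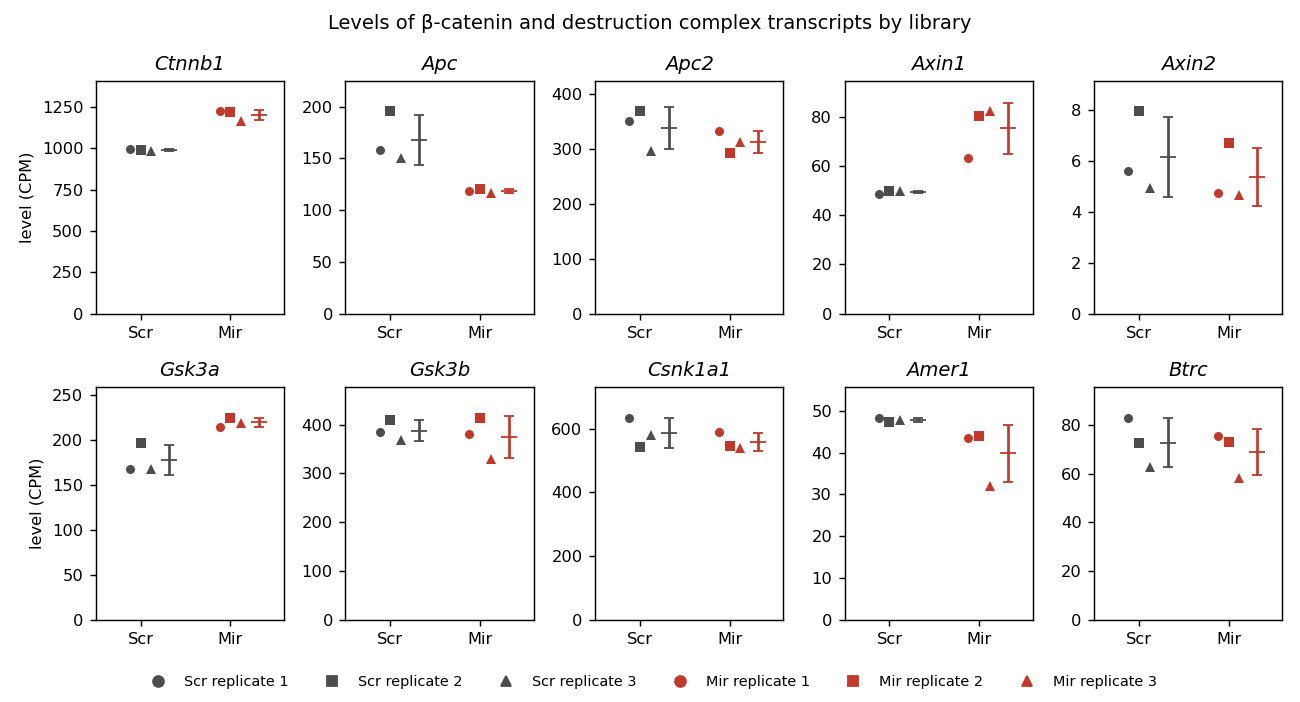
Level in CPM (vertical axes from 0) of each of the 10 transcripts in the 3 Scr (grey) and 3 Mir (red) libraries, with symbols for replicate number and bars for the mean ± SD. The groups are apart for Ctnnb1, Axin1 and Gsk3a, which are higher in Mir, and for Apc and Amer1, which are lower, and they overlap for the other 5 genes.

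Ctnnb1 (ENSMUSG00000006932, GRCm38 chromosome 9, 120929216 to 120960507, plus strand) was at 995, 989 and 983 CPM in Scr replicates 1, 2 and 3 and at 1224, 1218 and 1168 CPM in Mir replicates 1, 2 and 3. Libraries of a group lay close together, with a coefficient of variation of 0.609% in Scr and 2.54% in Mir, and the lowest Mir library was above the highest Scr library. The Mir mean was 1.22 times the Scr mean (log2 fold change 0.28 ± 0.06, SE). The adjusted p was 0.198 in edgeR and 0.00528 in DESeq2. The fold change stayed at 0.27 to 0.29 when any 1 library was left out. Of its exon bases, 15.1% also lie in exons of other genes, mainly Ulk4 on the opposite strand, so reads there are uncertain. The mean level of Ulk4 was 330 ± 10.7 CPM for Scr and 355 ± 36.4 CPM for Mir (SD, n = 3).

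The Apc scaffold carries repeats that hold β-catenin in the complex, and truncation of its human counterpart is the classic first step of colorectal cancer. Apc (ENSMUSG00000005871, chromosome 18, 34220924 to 34322552, plus strand) was at 158, 195 and 150.0 CPM in the Scr libraries and at 118, 120.1 and 116 CPM in the Mir libraries. Every Mir library was below every Scr library, and the Mir libraries spread far less, with an SD of 2.03 CPM against 24.3 CPM (n = 3 each). The Mir mean was 70.5% of the Scr mean, a log2 fold change of -0.51 ± 0.11. The adjusted p was 0.206 in edgeR and 0.00737 in DESeq2. Scr replicate 2 had the highest Apc level. It also had the highest marker sums for cortical neurons, inhibitory neurons, endothelial cells and red blood cells. Without it the log2 fold change was -0.38 ± 0.08 with an edgeR adjusted p of 0.213.

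Apc2, the paralogue enriched in the nervous system, was at 351, 368 and 295 CPM in Scr and at 332, 292 and 312 CPM in Mir. Its groups overlapped, with a log2 fold change of -0.12 ± 0.10 and an edgeR adjusted p of 0.648, and it was -0.05 without Scr replicate 2.

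Axin is the scaffold on which the kinases and β-catenin meet, and its protein is regarded as the scarcest component of the complex. Axin1 (ENSMUSG00000024182, chromosome 17, 26138688 to 26195811, plus strand) was at 48.8, 49.7 and 49.9 CPM in Scr and at 63.3, 80.5 and 82.2 CPM in Mir. The Scr libraries lay close together, with a coefficient of variation of 1.21%, while Mir replicate 1 lay between them and the other Mir libraries. The log2 fold change of 0.61 ± 0.12 was the largest among the 10, with the smallest edgeR adjusted p among them, 0.178, and a DESeq2 adjusted p of 0.00304. It was 0.52 to 0.72 with any 1 library left out.

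Axin2, the inducible paralogue that is itself a β-catenin target and so a common readout of the pathway, was scarce, with 69 to 110 counts per library. It was at 5.61, 7.96 and 4.94 CPM in Scr and at 4.77, 6.71 and 4.68 CPM in Mir, with overlapping groups. Its log2 fold change was -0.19 ± 0.27 with an edgeR adjusted p of 0.784. Without Scr replicate 2, the library with the highest Axin2 level, the fold change was 0.03.

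Amer1, an X-linked membrane adaptor that recruits Apc and Axin, was at 48.4, 47.4 and 47.8 CPM in Scr and at 43.4, 44.0 and 32.0 CPM in Mir. All Mir libraries were below all Scr libraries, but Mir replicate 3 stood well under the other Mir libraries. The log2 fold change of -0.27 ± 0.14 had an edgeR adjusted p of 0.423, and it was -0.15 without Mir replicate 3.

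**Figure D2:**
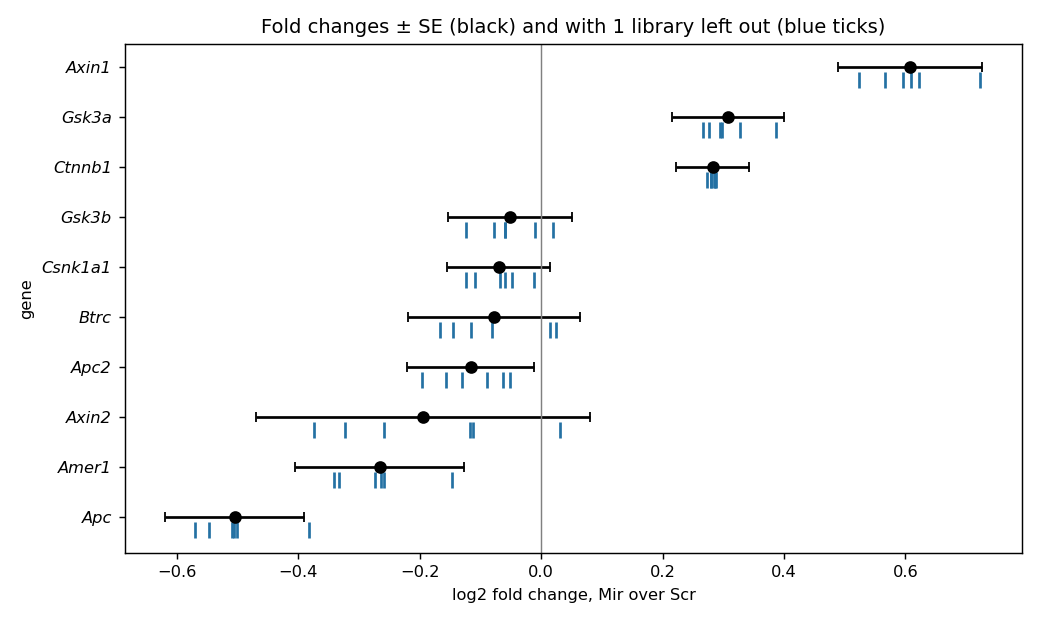
Log2 fold change of Mir over Scr (horizontal axis) for the 10 genes from edgeR, as a black point with its SE, and the values with each of the 6 libraries left out in turn as blue ticks. Axin1, Gsk3a, Ctnnb1, Amer1 and Apc keep their side of 0 in all 6 cases, as do Csnk1a1 and Apc2 with smaller values, while Gsk3b, Btrc and Axin2 cross it.

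The kinases differed among themselves. Gsk3a and Gsk3b encode the glycogen synthase kinase 3 paralogues that phosphorylate β-catenin after the priming step by casein kinase 1α. Gsk3a (ENSMUSG00000057177, chromosome 7, 25228258 to 25237851, minus strand) was at 168, 197 and 168 CPM in Scr and at 215, 225 and 219 CPM in Mir, without overlap. Its log2 fold change was 0.31 ± 0.09, and the adjusted p was 0.244 in edgeR and 0.0692 in DESeq2. Of the Gsk3a exon bases, 28.3% lie in exons of 9130221H12Rik on the opposite strand, which had a log2 fold change of 0.28 ± 0.10 (edgeR adjusted p 0.282), and without strand the reads of this pair cannot be told apart.

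Gsk3b was at 385, 410.0 and 368 CPM in Scr and at 380, 414 and 329 CPM in Mir. The groups overlapped, and the log2 fold change was -0.05 ± 0.10 with an edgeR adjusted p of 0.855. It was -0.01 without Scr replicate 2.

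Csnk1a1, which encodes the priming kinase casein kinase 1α, was at 635, 542 and 581 CPM in Scr and at 590.4, 546 and 537 CPM in Mir. Its groups overlapped as well, and its log2 fold change was -0.07 ± 0.09 with an edgeR adjusted p of 0.744. It was -0.12 without Scr replicate 2.

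Btrc, which encodes the β-TrCP protein that recognises phosphorylated β-catenin, was at 83.1, 72.6 and 62.9 CPM in Scr and at 75.5, 73.1 and 58.4 CPM in Mir. The Scr spread exceeded the distance between the groups, and the log2 fold change was -0.08 ± 0.14 with an edgeR adjusted p of 0.838.

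Levels can be compared between genes only per length, and here they are CPM per kb of merged exons. Ctnnb1 led in Scr with 191 ± 1.16 CPM per kb (SD, n = 3), followed by Gsk3a at 61.3 ± 5.84 and Csnk1a1 at 55.8 ± 4.44, whose libraries overlapped. Gsk3b at 39.4 ± 2.14 and Apc2 at 30.0 ± 3.38 CPM per kb came next. The scaffolds Axin1 at 12.9 ± 0.156, Apc at 10.4 ± 1.51 and Amer1 at 5.63 ± 0.0571 were lower, and Btrc at 4.31 ± 0.599 and Axin2 at 1.12 ± 0.289 CPM per kb were lowest. Apart from Gsk3a and Csnk1a1, no neighbours in this order overlapped in Scr, and the order of the group means was the same in Mir. The order depends on the transcript counted: per kb of the longest transcript, Csnk1a1 at 143 and Btrc at 15.4 CPM per kb moved to ranks 2 and 6 in Scr. Reads in exon bases shared with other genes, 28.3% for Gsk3a and 15.1% for Ctnnb1, are uncertain in these levels.

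**Figure D3:**
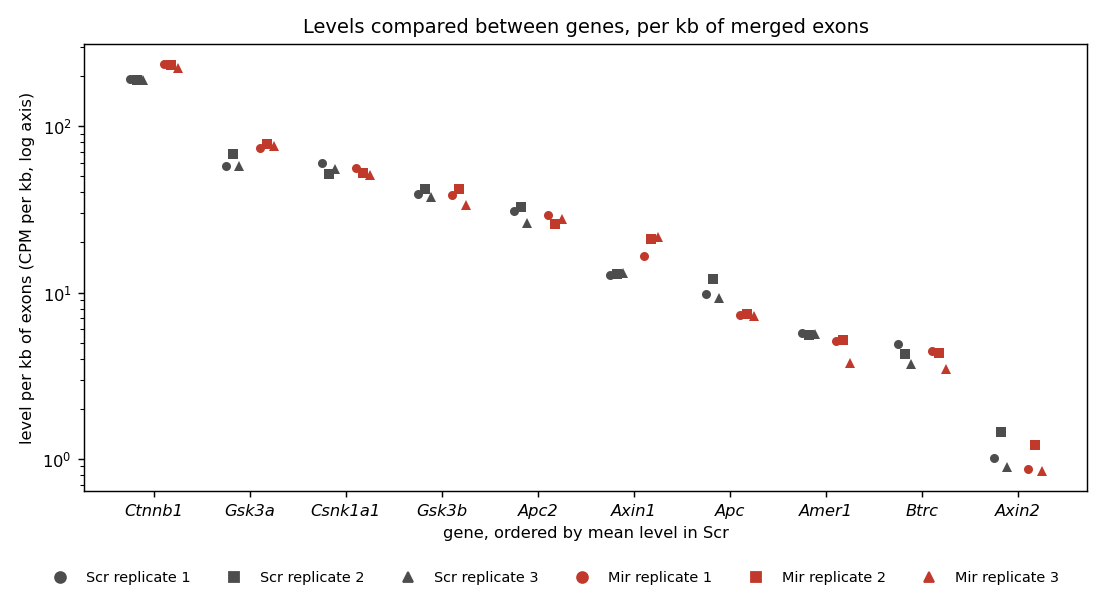
Level per kb of merged exons (CPM per kb, log axis) of the 10 transcripts in each Scr (grey) and Mir (red) library, in the order of the Scr means. Ctnnb1 lies above the kinases, the kinases and Apc2 above the other scaffolds, and Axin2 is lowest in every library.

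Ratios within a library need no library size, and 5 were compared between the groups. The log2 ratio of Ctnnb1 to Apc counts was 2.66, 2.34 and 2.71 in Scr and 3.37, 3.34 and 3.33 in Mir. The Mir libraries lay within a narrow band above all Scr libraries, and the ratio was 1.71 times higher in Mir, a difference of 0.78 on the log2 scale.

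The Axin1 to Axin2 ratio was 1.72 times higher in Mir, and Axin1 made up 95.2 ± 0.855% of the summed Axin level per kb in Mir against 92.0 ± 1.85% in Scr (SD, n = 3). The Gsk3a to Gsk3b ratio was 1.29 times higher, with Gsk3a at 66.6 ± 2.39% of the pair per kb in Mir against 60.8 ± 1.17% in Scr. Reads in the exon bases that Gsk3a (28.3%) and Ctnnb1 (15.1%) share with other genes are uncertain in their ratios too. The Apc to Apc2 ratio was lower in Mir, at 0.766 times the Scr value, with Apc2 at 79.0 ± 1.22% of the pair per kb in Mir against 74.2 ± 1.61% in Scr.

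For these 4 ratios the groups did not overlap, and each had an exact two-sided permutation p of 0.1, the smallest that 3 against 3 libraries allow, and 0.125 after Benjamini-Hochberg adjustment over the 5 ratios. This exact test therefore cannot reach 0.05 for a ratio. Each of these 4 ratios holds a gene that was itself separate between the groups (Axin1, Gsk3a, Apc or Ctnnb1). In part the ratios thus restate those separations, and the share of all gene pairs without overlap was not determined. The ratio of Btrc to Fbxw11, the gene of the other β-TrCP protein, was 0.803 times the Scr value with overlapping libraries (exact permutation p = 0.2, adjusted 0.2).

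**Figure D4:**
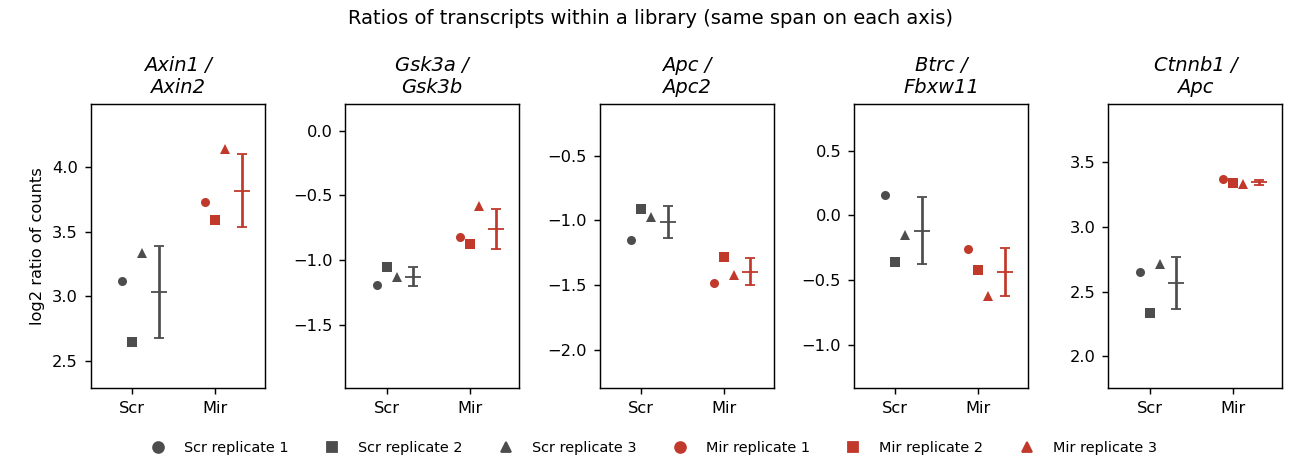
Log2 ratio of counts of 5 gene pairs within each library (vertical axes of equal span), with Scr in grey, Mir in red and bars for the mean ± SD. The Mir libraries lie above the Scr libraries for Axin1/Axin2, Gsk3a/Gsk3b and Ctnnb1/Apc and below for Apc/Apc2, and overlap them for Btrc/Fbxw11.

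Genes that act around the complex were described by 5 lists holding 61 tested genes, of which edgeR called 0. DESeq2 called 3, Tnks, Ctnna1 and Pygo2, where it called 4.37% of the 13285 genes to which it gave an adjusted p. Counts at an unadjusted edgeR p under 0.05 are given list by list, against 6.57% of all genes higher and 7.93% lower. Of 26 partners and regulators (phosphatase 2A subunits, Dishevelled proteins, tankyrases and others), the Mir mean was higher in 15 and lower in 11, and the median log2 fold change was 0.03 (0.06 without Scr replicate 2 and -0.01 without Scr replicate 3). By unadjusted p, 1 of them was higher and 1 lower. Tnks, a tankyrase that marks Axin for degradation, was at 54.6, 60.3 and 54.9 CPM in Scr and at 38.7, 44.7 and 36.6 CPM in Mir. All Mir libraries were lower, with a log2 fold change of -0.50 ± 0.11 and an edgeR adjusted p of 0.204. Dvl2, a Dishevelled protein that disables the complex when Wnt binds, was at 0.36 ± 0.12 (adjusted p 0.268), and Frat1, which binds GSK3, was at -0.55 ± 0.27 (adjusted p 0.399) by edgeR.

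Of 7 tested genes of the ubiquitin ligase that β-TrCP belongs to, the Mir mean was higher in 5 and lower in 2 (median 0.16), and 2 were higher by unadjusted p. These were Ube2m, the enzyme that attaches Nedd8 to cullins (0.25 ± 0.10, edgeR adjusted p 0.332), and Cul1, the cullin scaffold (0.39 ± 0.16, edgeR adjusted p 0.338). Cand1, which exchanges the F-box subunits of the ligase, was at 0.16 ± 0.07 (edgeR adjusted p 0.356) and Fbxw11 at 0.23 ± 0.12 (edgeR adjusted p 0.433).

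At adherens junctions, 8 of 9 listed genes could be tested, since Cdh1 was too low. The Mir mean was higher in 3 and lower in 5, and the median was -0.28 (-0.09 without Scr replicate 2). By unadjusted p, 1 was higher and 0 lower. Ctnna1, the α-catenin that links β-catenin to actin, was at 150.2, 126 and 138 CPM in Scr and at 184, 199 and 183 CPM in Mir. It was the member of this list with the smallest p and was separate between the groups, at 0.45 ± 0.09 (edgeR adjusted p 0.198, DESeq2 adjusted p 0.00427). The cadherin gene Cdh11 was at -0.73 ± 0.36 and the neuronal α-catenin gene Ctnna2 at -0.52 ± 0.26, and in both Scr replicate 2 was the highest library, at 42.1 and 207 CPM. Jup, the plakoglobin paralogue of β-catenin, was at -0.45 ± 0.29 (edgeR adjusted p 0.510).

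Of 12 nuclear partners, the Mir mean was higher in 4 and lower in 8 (median -0.09, and -0.04 without Scr replicate 1), and by unadjusted p 1 was higher and 2 lower. Pygo2, which recruits the β-catenin complex to chromatin marks, was at 91.1, 93.7 and 91.8 CPM in Scr and at 113, 117 and 120.2 CPM in Mir, without overlap, a log2 fold change of 0.34 ± 0.08 (edgeR adjusted p 0.206, DESeq2 adjusted p 0.0138). Its paralogue Pygo1 was on the other side at -0.45 ± 0.15 (edgeR adjusted p 0.276), and Ctnnbip1, an inhibitor that keeps β-catenin from TCF factors, was at -0.09 ± 0.11 (edgeR adjusted p 0.750). The TCF gene Tcf7 was scarce, at 3.43, 6.15 and 2.53 CPM in Scr and at 2.42, 2.17 and 1.90 CPM in Mir. Its log2 fold change was -0.89 ± 0.38 (edgeR adjusted p 0.338), and Scr replicate 2 was its highest library.

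Of the 14 listed feedback and target genes, 10 could be tested. The Mir mean was higher in 2 and lower in 8, and by unadjusted p 1 was higher and 1 lower. The median was -0.42, and it was -0.22 without Scr replicate 2, -0.27 without Mir replicate 1 and -0.73 without Mir replicate 3. It includes scarce genes: Scr means were 0.63 CPM for Sp5, 3.67 for Nkd2, 4.04 for Tcf7, 6.73 for Lef1 and 8.03 for Znrf3. The highest was 91.5 CPM for Ccnd1. Dkk1, Notum, Rnf43 and Lgr5 were too low for testing. Lef1 and Tcf7 stand in this list and the preceding one. Znrf3, a ligase that removes Wnt receptors, was at 8.49, 6.37 and 9.21 CPM in Scr and at 10.9, 11.4 and 11.7 CPM in Mir (log2 fold change 0.50 ± 0.20, edgeR adjusted p 0.321). Lef1 was at 6.39, 8.98 and 4.82 CPM in Scr and at 0.827, 1.28 and 5.16 CPM in Mir. Its log2 fold change was -1.48 ± 0.64 (edgeR adjusted p 0.350, DESeq2 adjusted p 0.185). Mir replicate 3 was within the Scr range for Lef1. Among the Mir libraries it was also highest for the radial glia, inhibitory neuron, endothelial, microglia and red blood cell marker sums. The part of these cell types in the Lef1 values was not tested. Myc and Ccnd1, proliferation genes that β-catenin can activate, were at -0.39 ± 0.23 (edgeR adjusted p 0.486) and -0.04 ± 0.21 (edgeR adjusted p 0.952).

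**Figure D5:**
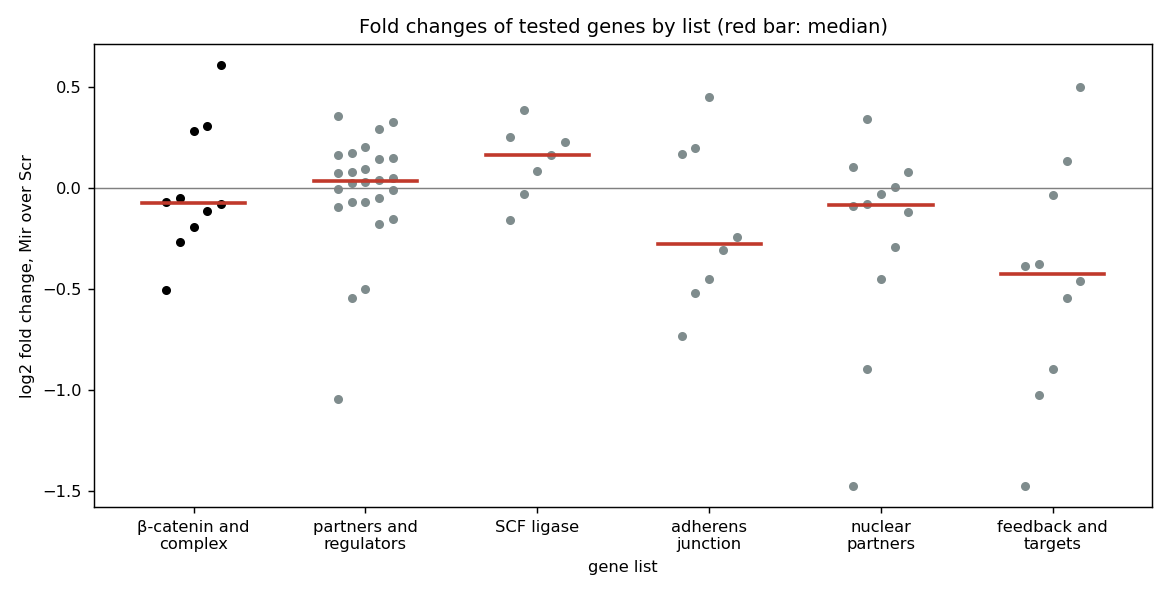
Log2 fold change of Mir over Scr (vertical axis) for the 10 genes of β-catenin and its complex (black) and for the tested genes of the 5 surrounding lists (grey), with the median of each list as a red bar. Medians run from -0.42 for feedback and target genes to 0.16 for the ubiquitin ligase list, and no gene shown passed edgeR's adjusted threshold.

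The genes whose log2 CPM followed a member most closely over the 6 libraries were ranked by Pearson's r, as a description in which both genes share libraries and group differences. For Ctnnb1 these were Cand1 (r = 0.996), Immt (r = 0.995) and Polg (r = 0.995), each with a Spearman rho of 0.943, and 126 genes had r above 0.95. For Apc they were Bcl11a (r = 0.999), Pik3cg (r = 0.998) and Aph1b (r = 0.996), with rho of 0.943, 0.941 and 1. Pik3cg was listed at 0 counts in all Mir libraries. Axin2 had fewer close followers, with 13 genes above 0.95, led by Tmtc3 (r = 0.981), Dusp22 (r = 0.977) and Sfrp4 (r = 0.973). With 6 libraries and 16897 genes, values this high carry no test.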

How the data were processed

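Raw, whole-number read counts per Ensembl gene were taken as deposited. The submitters' processing notes name HISAT2 (2.1.0), HTSeq (0.11.0), DESeq2 (1.18.1) and the build GRCm38 (mm10). The annotation or strand setting is not given in the sources used here. Per the labels' protocols, SMART-seq v4 libraries were read as 50 bp single reads. From 21.9 to 23.6% of all listed counts, with 5 summary lines included, fell in genes. The summary line for alignments that were not unique held 39.3 to 44.4%, and that for no feature held 28.8 to 31.6%. These 5 summary lines name no gene and were left out of the fits. Reads were amplified and carry no molecular identifiers, so they do not count molecules.

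Counts were fitted for all genes with edgeR 4.0.16 (R 4.3.3; filterByExpr, TMM, quasi-likelihood F test, two-sided, group as sole term), with Benjamini-Hochberg adjustment over 16897 genes and a threshold of 0.05. SE is the fold change over the root of F. In simulated counts for this comparison (16897 genes), edgeR recovered 41 of 100 genes changed by 1 on the log2 scale and 74 of 100 changed by 2. Changes of the members' size, 0.61 or less in either direction, were not simulated, so these rates do not describe them. Alternatives were DESeq2 1.42.0, where 3612 genes had no adjusted p, limma-voom (limma 3.58.1), other size factors and filters, a replicate block and leaving libraries out. Symbols, exon lengths and UTRs came from GENCODE M21 (GRCm38), and the seed search with its choice of isoforms and UTR lengths was added after seeing the data. Likeness used log2 (CPM + 0.5). Libraries of a group differed by a chi-square per degree of freedom of 7.69 to 25.6, so none repeated another.

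The members, lists and tests were chosen with earlier results of these data known. Named beyond the members were the 3 genes of smallest p in each list, the 3 most alike for Ctnnb1, Apc and Axin2, and Fbxw11, Ctnnbip1, Jup, Lef1, Ccnd1 and Myc.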

Additional observations from a re-analysis of the deposited data

How the results depend on the processing

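The direction of Ctnnb1, Apc, Apc2, Axin1, Gsk3a, Csnk1a1 and Amer1 and of all 5 ratios was kept under every alternative run. With DESeq2, Ctnnb1 (0.28), Apc (-0.51) and Axin1 (0.61) passed the threshold, as did 3 genes of the 5 lists; DESeq2 called 247 genes higher and 333 lower over all genes. Without the filter on low counts edgeR called 15 higher and 16 lower, with limma-voom 0 were lower, and without Scr replicate 2 and Mir replicate 3 edgeR called 10 higher and 19 lower, with no member among them. In that last setting Axin2 was at 0.12, Gsk3b at 0.075 and Btrc at 0.026, each reversed, and the adherens junction median was -0.14. Leaving out 1 library in turn gave 0 to 2 genes called lower, and ranges of -0.17 to 0.02 for Btrc, -0.37 to 0.03 for Axin2, -0.12 to 0.02 for Gsk3b, -0.35 to -0.086 for the adherens junction median and -0.73 to -0.22 for the feedback and target median, which was -0.19 without the filter on low counts. The cause was not tested. Per kb of the longest transcript, the Scr ranks of Gsk3a, Csnk1a1, Axin1, Amer1 and Btrc were 3, 2, 8, 9 and 6.

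Same-numbered Scr and Mir libraries did not consistently deviate together. The correlations were 0.25, -0.15 and -0.09 for numbers 1, 2 and 3, and 2 of 6 libraries correlated best with their own number. With a replicate block 0 genes were called lower, and the smallest adjusted p of a member was 0.265 by edgeR. Axin2, at 69 to 110 counts per library, is the member whose precision is most limited by depth.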
